A study of Mus musculus with 14 samples.

Results

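The expression profiles of 3 mouse germline stem cell lines were set against those of embryonic stem cells. The germline stem cells (GSC OG2) were 3 lines of strain C57BL6 carrying an Oct4-GFP transgene, a reporter in which the control region of Pou5f1 (Oct4) drives a fluorescent protein, and the labels give them as unipotent. The embryonic stem cells (ESC) were also C57BL6, with no transgene in their labels, and were given as pluripotent. Reporter and cell type therefore cannot be told apart. The comparison used 5 of the series' 14 samples, each on 1 Illumina Mouse-8 v2 array, and took in every probe with a detection p-value under 0.01 on at least 2 of the 5 arrays, which left 12165 of 25697 probes. The 3 germline arrays are separate lines, whereas the series text calls its duplicates biological or technical without saying which. The titles of all 5 arrays carry the tag biol rep2, whose meaning is not given. The p-values may thus rest in part on technical spread, and the number of arrays limits their precision. Of the other 9 arrays, the 3 of GSC OG2-ROSA lines, which carry Oct4-GFP and LacZ transgenes on a C57BL6 x 129sv background, serve for 1 further contrast and for single values, and all 9 for chromosome medians.

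Germline stem cells are the cultured form of spermatogonial stem cells, which renew themselves in the testis and feed sperm production. They depend on glial cell line-derived neurotrophic factor (GDNF), which acts through the receptor Ret and its partner Gfra1, and on a set of transcription factors that hold them short of meiosis. Embryonic stem cells instead keep up a network built around Pou5f1, Sox2 and Nanog, helped by leukaemia inhibitory factor (LIF) and by factors of the naive state such as Esrrb and Klf2. Both cell types use Pou5f1, Sall4 and Lin28a, so a comparison of them shows which parts of the 2 networks are shared and which are not.

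The regions just upstream of 5 genes called in the comparison are printed first, because a hexamer and a composite element in them are known in these cell types. CACGTG is the E-box bound by basic helix-loop-helix factors, ATGCAAAT is the octamer that POU factors bind, and the Oct-Sox composite runs TTTGCAT, any base, ACAATG. Each was searched on both strands in the 250 bases before each RefSeq gene start (build GRCm38.p6). The start of the composite shares all but 1 letter with the octamer read on the other strand, so a stretch can hold both. The motifs were chosen after the values were seen. Capitals mark the matches in 5 such stretches, 3 from genes higher in GSC OG2 with an E-box (Sohlh1, Taf7l, Taf9b) and 2 from genes lower in GSC OG2 (Nanog, Zfp42):
Sohlh1, chr2:25847249-25847498, minus strand: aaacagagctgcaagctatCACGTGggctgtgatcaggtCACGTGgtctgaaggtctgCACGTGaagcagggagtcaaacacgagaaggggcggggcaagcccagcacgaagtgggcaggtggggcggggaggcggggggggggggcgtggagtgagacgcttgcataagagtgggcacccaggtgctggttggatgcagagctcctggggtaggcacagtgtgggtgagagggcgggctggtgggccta
Taf7l, chrX:134476491-134476740, minus strand: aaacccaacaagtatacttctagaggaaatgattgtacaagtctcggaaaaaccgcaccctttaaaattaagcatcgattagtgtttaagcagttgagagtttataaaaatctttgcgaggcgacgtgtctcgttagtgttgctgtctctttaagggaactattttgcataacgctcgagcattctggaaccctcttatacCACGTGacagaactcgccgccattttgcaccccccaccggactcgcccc
Taf9b, chrX:106221159-106221408, minus strand: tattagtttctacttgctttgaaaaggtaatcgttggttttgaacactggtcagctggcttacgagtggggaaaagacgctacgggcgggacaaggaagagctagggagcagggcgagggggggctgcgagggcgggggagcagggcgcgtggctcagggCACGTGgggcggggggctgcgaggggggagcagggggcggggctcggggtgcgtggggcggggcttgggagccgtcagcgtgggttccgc
Nanog, chr6:122707239-122707488, plus strand: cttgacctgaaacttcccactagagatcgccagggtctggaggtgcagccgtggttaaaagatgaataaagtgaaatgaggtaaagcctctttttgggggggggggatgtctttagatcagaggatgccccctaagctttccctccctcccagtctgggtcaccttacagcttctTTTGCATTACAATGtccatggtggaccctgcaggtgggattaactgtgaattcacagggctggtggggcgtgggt
Zfp42, chr8:43307010-43307259, minus strand: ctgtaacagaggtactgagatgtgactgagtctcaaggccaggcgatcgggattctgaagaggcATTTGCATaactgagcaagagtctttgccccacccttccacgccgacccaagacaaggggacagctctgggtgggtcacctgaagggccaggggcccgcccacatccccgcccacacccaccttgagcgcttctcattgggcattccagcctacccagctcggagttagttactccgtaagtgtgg
Of the germline list members called higher in GSC OG2, 58 in all, 51 had an upstream entry, and 12 of these (23.5%) held CACGTG. It was 10.5% among the 6872 tested genes with an entry, 6.02% among all 32851 entries and 13.0% (3 of 23) among the pluripotency and signalling members called lower. The Sohlh1 stretch held it at 3 places and the Taf7l and Taf9b stretches at 1 each. The composite was found in 1 tested gene, Nanog, and in 2 of all entries. The octamer lay upstream of 1 of 23 pluripotency and signalling members called lower (4.35%), namely Zfp42, and of 1 of 51 germline members called higher (1.96%), against 1.60% of tested genes. A match describes letters in this window and no measurement of binding was made.

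The labelled cell types were checked against marker genes. Of 8 germ cell markers, 7 were detected on all 3 GSC OG2 arrays and 2 on both ESC arrays. The exception was Gfra1, which read 5.35, 5.26 and 6.39 (log2 intensity) on GSC OG2 lines 1, 2 and 3, against 5.45 and 5.61 on the ESC arrays, and was detected on line 3 alone. Of 8 pluripotency markers, 4 (Nanog, Tdgf1, Fgf4 and L1td1) were detected on no GSC OG2 array, while 8 were detected on both ESC arrays. Of the 8 markers of Sertoli, Leydig and peritubular cells, Amh, Cyp17a1, Hsd3b1, Star and Gata4 were undetected on all GSC OG2 arrays, and Wt1 and Acta2 were detected on all of them. All 7 fibroblast markers on the array were detected on all 3 GSC OG2 arrays and 2 (Dcn, Thy1) on both ESC arrays. The mean level of the longer fibroblast and stromal list was 9.18, 9.44 and 8.91 on GSC OG2 lines 1, 2 and 3, against 6.98 and 6.95 on the ESC arrays. In whole cultures, fewer cells of a type and less RNA per cell cannot be told apart.

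Differences between the cell types were spread over much of the array. At a limma adjusted p under 0.05, 5828 probes were called (47.9%), 3099 higher (25.5%) and 2729 lower (22.4%) in GSC OG2 than in ESC, and 4207 of them differed at least 2-fold. The median difference of all tested probes was 0.04 on the log2 scale, on which every difference in the text is given as GSC OG2 minus ESC. Reduced to 1 probe per named gene, 8424 genes were tested, of which 49.2% were called, 26.7% higher and 22.5% lower, with a median of 0.06. The counts by gene list are to be read against these shares, with 2 limits. The lists were chosen with earlier results of these data known. A gene undetected in 1 group passed the probe filter through the other group, so its direction was largely set beforehand. All 3 GSC OG2 arrays lay above both ESC arrays for 38.8% of probes and below both for 36.4%. Between any GSC OG2 array and any ESC array, 37.7% to 38.2% of tested probes were more than 2-fold apart, against 4.09% to 7.62% between GSC OG2 lines and 0.510% between the ESC arrays. The lowest detected level was 5.54 to 5.57 on the GSC OG2 arrays and 6.02 to 6.21 on the ESC arrays, so more dim probes count as detected in GSC OG2: 1413 probes (11.6%) were detected on all 3 GSC OG2 arrays and no ESC array, and 349 (2.87%) on both ESC arrays and no GSC OG2 array.

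The largest difference in favour of GSC OG2 was that of Mageb4. This X-linked gene of the melanoma antigen family read 13.44, 13.71 and 12.64 on the 3 GSC OG2 lines, against 4.66 and 4.85 on the ESC arrays. It was undetected on both ESC arrays, and the difference corresponds to at least 141-fold (limma adjusted p = 3.1e-08). Such a bound sets the GSC OG2 mean against the lowest detectable level in ESC, or the probe's own level where that is higher. Egr4, a zinc finger transcription factor of the early growth response family, read 13.50, 13.00 and 13.25 on the GSC OG2 lines, against 4.65 and 5.27 on the ESC arrays, which is at least 140.2-fold higher (adjusted p = 4.7e-07, limma). The testis alpha-tubulin Tuba3a was at least 185-fold higher by one probe, and by its brighter probe, which ESC also showed, the difference was 4.66 (SE 0.38). Lyz1 and Lyz2, lysozyme genes that are abundant in macrophages, were also among the leading 15. Lyz1 read 14.21, 13.18 and 11.14 on lines 1, 2 and 3, against 5.67 and 6.59 on the ESC arrays, so the lines spanned a wider range than for most leading genes. The rest of the leading 15 were Taf7l, Sohlh1, Dazl, Nlrp4c, Tex13b, Oasl2, Smc1b, Ifi27, Taf9b and Tsc22d3, with differences between 6.19 (Tsc22d3) and 7.47 (Taf7l).

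**Figure D1:**
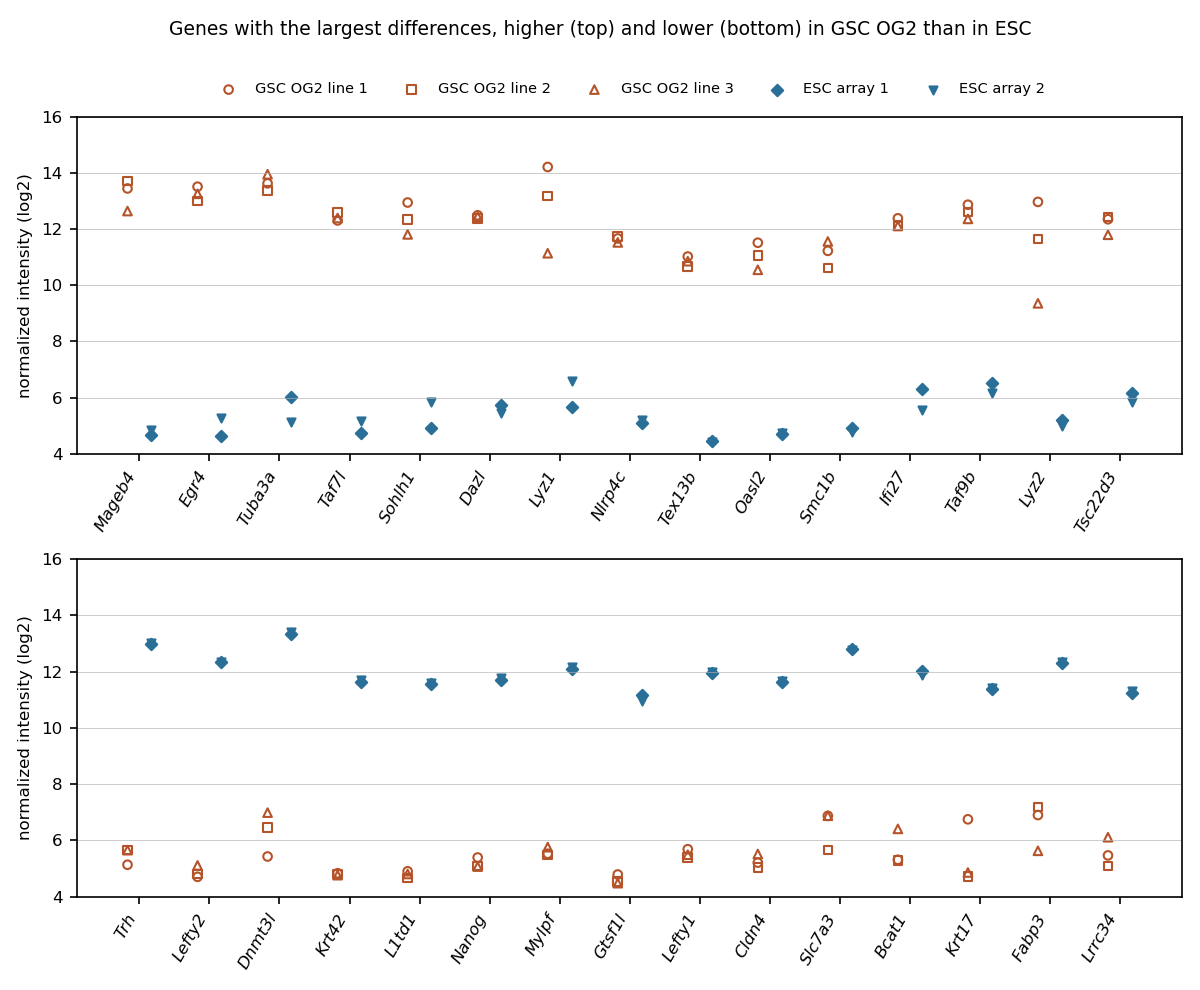
Normalized intensity (log2) of the 15 genes with the largest differences in each direction, with GSC OG2 lines as open red symbols at left and ESC arrays as filled blue symbols at right of each gene. The groups do not overlap for any of these genes, by the rule that chose them, and Lyz1 and Lyz2 spread most over the GSC OG2 lines.

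In the other direction, the largest difference was that of a hormone precursor gene. Trh, the precursor of thyrotropin-releasing hormone, read 5.14, 5.66 and 5.65 on the GSC OG2 lines, against 12.99 and 13.02 on the ESC arrays (difference -7.52, SE 0.33). Lefty2, a secreted inhibitor of Nodal, read 4.71, 4.81 and 5.11 on the GSC OG2 lines, against 12.35 and 12.33 on the ESC arrays, and was at least 111-fold lower in GSC OG2. Dnmt3l, the cofactor of the de novo DNA methyltransferases, fell to 5.43, 6.46 and 6.99 on the GSC OG2 lines, against 13.33 and 13.41 on the ESC arrays. Undetected on every GSC OG2 array were also L1td1 (at least 65.2-fold lower), Nanog (73.5-fold), the keratin Krt42 (69.6-fold), the claudin Cldn4 (68.1-fold) and Gtsf1l (45.9-fold). Mylpf, Lefty1, Slc7a3, Bcat1, Krt17, Fabp3 and Lrrc34 complete the 15, with differences from -6.53 (Mylpf) to -5.72 (Lrrc34). The limma adjusted p-values of all 30 leading genes lay between 1.03e-09 and 6.27e-05.

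The core pluripotency factors were lower in GSC OG2 but not to the same degree. Of 16 tested members, 0 were higher, 11 were lower and 5 were not called, with a median difference of -2.70. Nanog, the homeobox factor of the naive state, was undetected in GSC OG2, at 5.39, 5.08 and 5.07, against 11.72 and 11.78 in ESC. Pou5f1, the POU factor shared by germ and embryonic stem cells, read 12.07, 9.32 and 7.02 on lines 1, 2 and 3, against 13.07 and 12.86 on the ESC arrays. Line 1 thus stood near the ESC level and line 3 far below it, and the mean difference was -3.50 (SE 0.93, limma adjusted p = 0.00768). Sox2, the partner of Pou5f1, read 8.54, 4.59 and 5.70 on the same lines, against 10.32 and 10.39 in ESC (difference -4.08, SE 1.28, limma adjusted p = 0.0182). The 3 GSC OG2-ROSA lines ranged from 9.27 to 10.28 for Pou5f1 and from 4.58 to 8.24 for Sox2.

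Sall4, a zinc finger factor needed in both cell types, was lower by a small amount: it read 12.10, 11.96 and 11.67 in GSC OG2 and 12.49 and 12.51 in ESC (difference -0.59, SE 0.18, limma adjusted p = 0.0174). Its dimmer probe gave 0.78 (SE 0.36) and was not called. Lin28a, an RNA-binding protein that blocks let-7 maturation, did not pass the test (difference -0.87, SE 0.48, limma adjusted p = 0.155). Dppa3, an early germ cell and preimplantation gene, did not pass it either (difference -2.74, SE 1.16, limma adjusted p = 0.0679), with 8.69, 7.86 and 6.85 in GSC OG2 and 10.50 and 10.57 in ESC. Dppa5a, an RNA-binding protein of pluripotent cells, stayed well above background in GSC OG2 at 11.25, 10.84 and 11.24, against 15.22 and 15.11 in ESC. When the mean of the fibroblast list entered the fit as a covariate, Pou5f1 and Sox2 were no longer called (differences -3.26 and -1.57, limma adjusted p = 0.171 and 0.624), nor was Sall4 (-0.51, SE 0.31). Dppa3 was called in that fit, with a difference of -5.45 (SE 1.73, limma adjusted p = 0.0436).

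Of 14 tested naive pluripotency factors, 13 were lower and 1 was higher (median -3.33). Klf2, a Krüppel-like factor, fell to 7.12, 6.49 and 6.91 in GSC OG2, against 12.41 and 12.51 in ESC. Esrrb, an orphan nuclear receptor, read 6.76, 7.90 and 8.20 in GSC OG2, against 12.88 and 13.08 in ESC (difference -5.36, SE 0.35). Klf4 differed less, at 8.48, 8.57 and 8.95 in GSC OG2 and 9.95 and 10.04 in ESC, and was called at a limma adjusted p of 0.0273. The member that was higher was Stat3, the transcription factor downstream of LIF, at 11.60, 11.30 and 11.71 in GSC OG2, against 9.30 and 9.43 in ESC. Neither group showed Myc, whose probes were detected on none of the 5 arrays.

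Among 20 tested genes of Nodal, LIF and fibroblast growth factor (FGF) signalling, 12 were lower, 1 was higher and 7 were not called (median -1.67). The ligands Nodal and Gdf3, the coreceptor Tdgf1 and the inhibitors Lefty1 and Lefty2 were lower, with differences from -3.53 (Nodal) to -7.46 (Lefty2). Fgf4, the FGF ligand that ESC secrete, read 4.91, 4.63 and 4.59 in GSC OG2, against 8.19 and 8.10 in ESC. Of the LIF pathway, Socs2 was lower (difference -4.67), while Socs3 (0.35, SE 0.34) and the receptor chain Il6st (0.16, SE 0.22) did not pass the test. Dusp6, a feedback phosphatase of the MAP kinase cascade, varied among the lines, with 10.24, 8.29 and 11.26 on lines 1, 2 and 3, against 11.24 and 11.12 on the ESC arrays.

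**Figure D2:**
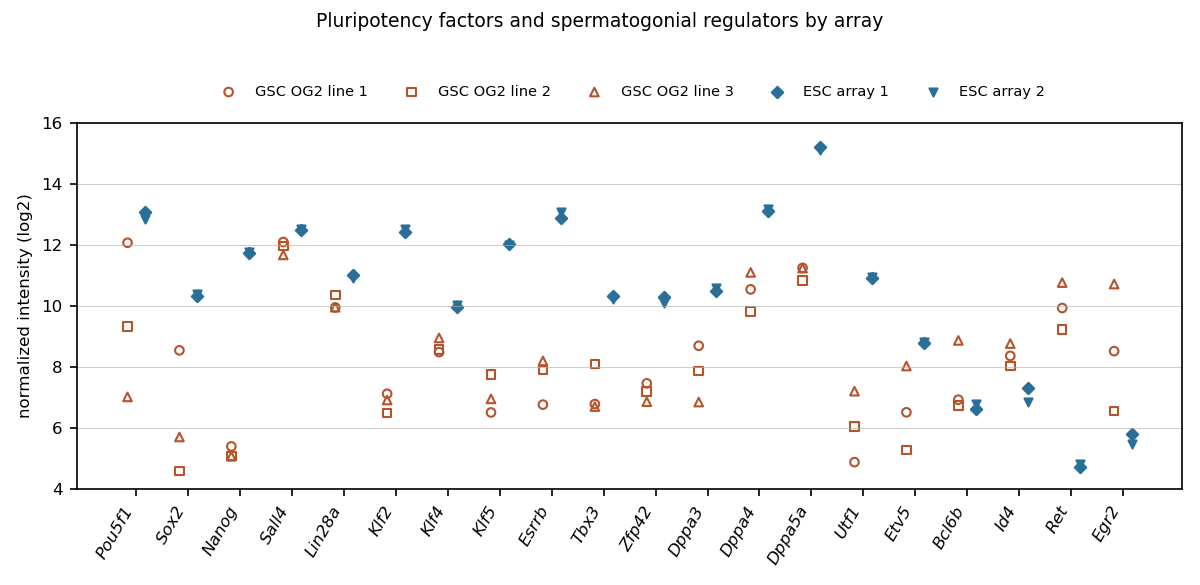
Normalized intensity (log2) of pluripotency factors and spermatogonial regulators on each array, GSC OG2 lines as open red symbols at left and ESC arrays as filled blue symbols at right of each gene. Pou5f1 spans 7.02 to 12.07 over the GSC OG2 lines, Nanog stays at background on all 3, and Etv5, Bcl6b and Egr2 are highest on line 3.

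Of 23 tested transcription and stem cell regulators of spermatogonia, 12 were higher, 4 were lower and 7 were not called (median 1.47). Egr4, Sohlh1, Rhox10, Pou3f1 and Neurog3 were undetected on both ESC arrays and so passed the probe filter through GSC OG2 alone. Sohlh1, a basic helix-loop-helix factor of spermatogonia, read 12.94, 12.35 and 11.81 in GSC OG2, against 4.94 and 5.85 in ESC, and was at least 75.9-fold higher. Rhox10, an X-linked homeobox gene that acts in the formation of spermatogonial stem cells, read 10.13, 11.20 and 10.73 in GSC OG2, against 4.47 and 4.69 in ESC. Pou3f1, a POU factor of these cells, and Neurog3, a marker of undifferentiated spermatogonia, were higher by 3.62 (SE 0.55) and 3.49 (SE 0.98). Nanos2, the RNA-binding guardian of the stem cell state, read 9.22, 8.03 and 9.33 in GSC OG2, against 5.55 and 5.94 in ESC.

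The 4 lower members are genes that ESC use as well: Utf1, Etv5, Tcl1 and Sall4. Etv5, an Ets factor induced by GDNF and FGF, read 6.51, 5.28 and 8.03 on GSC OG2 lines 1, 2 and 3, against 8.78 and 8.81 on the ESC arrays (difference -2.19, SE 0.60). Without ESC array 1 or 2, or with the ESC arrays averaged, 2, 1 and 1 of these members were called lower. Bcl6b, another target of GDNF, read 6.92, 6.74 and 8.87 on the 3 lines, against 6.61 and 6.77 in ESC, and was not called (0.82, SE 0.62). Id4, a helix-loop-helix inhibitor of the stem cell fraction, was not called either (1.32, SE 0.57, limma adjusted p = 0.0724). In the fit with the fibroblast covariate Id4 was called higher (3.01, SE 0.77, limma adjusted p = 0.0163), and Etv5 was no longer called (-1.14, SE 0.95).

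Line 3 was the highest GSC OG2 line for Etv5, Bcl6b and Egr2, and line 2 the lowest. Egr2, another GDNF-responsive gene, read 8.52, 6.56 and 10.72 on lines 1, 2 and 3, against 5.78 and 5.48 in ESC. Ret, the signalling receptor of GDNF, was detected on no ESC array and had the same order of lines, at 9.93, 9.22 and 10.77, against 4.72 and 4.80 in ESC (difference 5.21, SE 0.34). Of the 11 tested members of the spermatogonial surface and GDNF receptor list, 5 were higher (Ret, Mcam, Tspan8, Gfra3 and Ddx4), 1 was lower and 5 were not called. Ddx4, which the list holds as a germ cell marker, encodes an intracellular RNA helicase. The lower one was Cdh1 (E-cadherin), at 5.63, 5.87 and 6.76 in GSC OG2, against 11.50 and 11.44 in ESC. The integrin chains Itga6 and Itgb1, the tetraspanin Cd9 and Thy1, which are used to sort spermatogonial stem cells, did not pass the test. Thy1, counted above as a fibroblast marker too, still read 10.30, 10.17 and 10.47 in GSC OG2, against 8.70 and 8.97 in ESC. With the fibroblast covariate 3 members of this list were called higher.

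Of 21 tested members of the germ cell RNA-binding and early germ cell list, 16 were higher, 1 was lower and 4 were not called (median 2.97). The list mixes RNA-binding proteins with other germ cell genes such as Tex11, Tex101, Tex13b and Stra8. Dazl, Tex11, Tex101, Tex13b and Stra8 were undetected on both ESC arrays and so passed the probe filter through GSC OG2 alone. The count and median of the list rest in part on such members. Dazl, a translational regulator found in germ cells of both sexes, read 12.49, 12.37 and 12.44 in GSC OG2, against 5.75 and 5.45 in ESC, at least 79.4-fold higher. Ddx4 (Vasa), the RNA helicase that marks germ cells, read 9.94, 10.06 and 10.13 in GSC OG2, against 6.56 and 6.42 in ESC. Stra8, the retinoic acid-induced gatekeeper of meiosis, was more variable, with 9.38, 10.34 and 7.32 on lines 1, 2 and 3, against 5.35 and 5.41 in ESC (difference 3.63, SE 0.82). The lower member was Tfap2c, a factor of primordial germ cells and trophoblast, at 8.91, 9.42 and 7.58 in GSC OG2, against 12.17 and 11.94 in ESC.

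Of 15 tested piRNA pathway and germ granule genes, 12 were higher, 1 was lower and 2 were not called (median 2.77). PIWI-interacting RNAs silence transposons in the male germline. Tdrkh, a Tudor protein that takes part in trimming these RNAs, read 11.15, 11.46 and 11.11 in GSC OG2, against 5.03 and 5.09 in ESC. Piwil2 (Mili), an Argonaute protein of the pathway, read 12.22, 12.79 and 12.29 in GSC OG2, against 7.80 and 7.76 in ESC. Asz1, Mov10l1 and Tdrd7 were higher by 5.66 (SE 0.42), 5.69 (SE 0.22) and 5.91 (SE 0.39). Like Tdrkh, they were undetected on both ESC arrays and so passed the probe filter through GSC OG2 alone. The count and median of the list rest in part on such members. The lower member, Gtsf1l, is a relative of a PIWI cofactor and was undetected on every GSC OG2 array.

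Genes of early meiosis were in part detected in GSC OG2. Of 14 tested members of the meiotic list, 11 were higher, 1 (Mlh3) was lower and 2 were not called (median 1.95). The meiotic cohesin subunits Smc1b and Stag3 were higher by 6.28 (SE 0.45) and 3.40 (SE 0.38), and Tex11, an X-linked crossover gene, by 5.20 (SE 0.25). Smc1b, Tex11, Stra8, Sycp1 and Hormad2 were undetected on both ESC arrays and so passed the probe filter through GSC OG2 alone. Spo11, which makes the breaks that start recombination, read 7.12, 7.33 and 7.08 in GSC OG2, against 4.59 and 5.12 in ESC. Other core meiotic genes stayed at background, and Sycp2, Sycp3, Tex12, Hormad1, Dmc1, Hfm1 and Terb1 were detected on none of the 5 arrays. Of 15 genes of haploid spermatids on the array, only 4 could be tested, with 3 higher, and Prm1, Tnp1, Tnp2, Acrv1, Akap4 and Pgk2 were undetected on all 5 arrays. The 3 higher ones, Ldhc, Izumo1 and Spaca1, also passed the filter through GSC OG2 alone.

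X-linked genes of the cancer-testis type had the highest share of higher calls among the 29 lists, 15 of 18, with 2 lower, 1 not called and a median of 4.33. The list had 24 members on the array, and those left untested were detected on none of the 5 arrays. Mageb4, Taf7l, Tex13b, Rhox10 and Tktl1 were undetected on both ESC arrays and so passed the probe filter through GSC OG2 alone. The rank and median of the list rest in part on such members. Besides Mageb4, the members with the largest values were Taf7l, Tex13b, Rhox10, Xlr4a and Tktl1, higher by 5.99 to 7.47 log2 units. Xlr4a belongs to a family of near-identical X-linked copies, so its probe may read more than 1 gene. Both lower members were homeobox genes of the Rhox cluster: Rhox5 read 5.06, 5.14 and 5.81 in GSC OG2, against 10.85 and 10.85 in ESC, and Rhox9 fell by 3.14. Rhox10 of the same cluster was higher, as given above. Rhox6 did not pass the test (-1.97, SE 0.86, limma adjusted p = 0.0743).

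With the fibroblast level as a covariate, the counts of higher members were 15 for the X-linked list, 12 for the piRNA list, 15 for the RNA-binding list, 12 for the spermatogonial regulators and 9 for the meiotic list. The fibroblast list mean was 8.76, 6.98 and 8.27 on GSC OG2-ROSA lines 1, 2 and 3. The 3 GSC OG2-ROSA lines read 12.32 to 12.51 for Dazl, 12.17 to 12.41 for Taf7l and 11.16 to 11.30 for Tdrkh. The part of stromal cells in the germline calls was not tested.

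**Figure D3:**
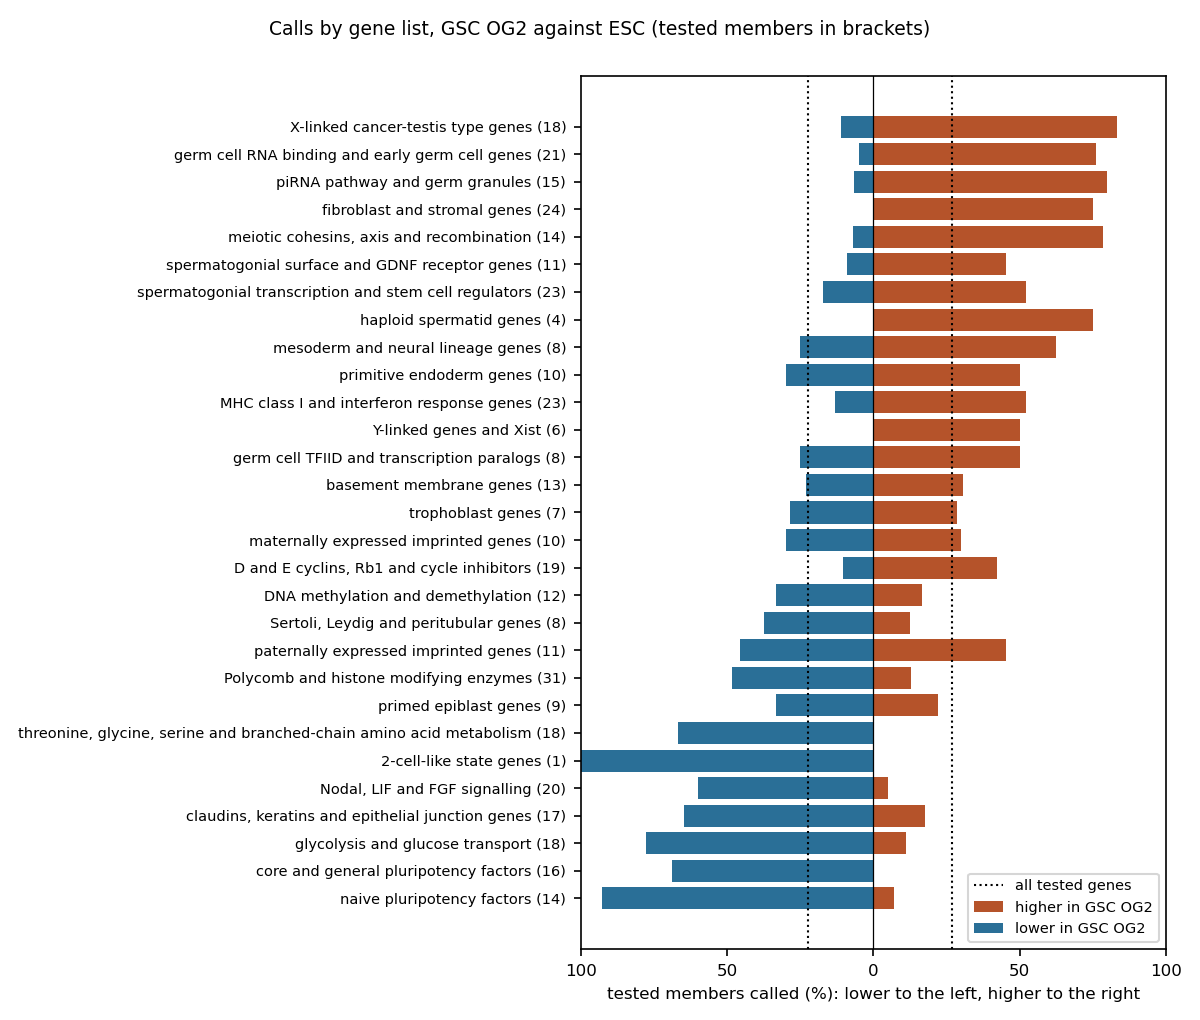
Share of tested members (%) called higher (red, to the right) or lower (blue, to the left) in GSC OG2 than in ESC for each gene list, with dotted lines at the shares of all tested genes (26.7% higher, 22.5% lower) and tested members in brackets. Lists are ordered by their median difference, with the X-linked cancer-testis type genes at the top (15 of 18 higher) and the naive pluripotency factors at the bottom (13 of 14 lower). The lists were chosen with earlier results of these data known.

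Germ cells express relatives of many general proteins, and 10 pairs of a gene listed as the germ cell member and a relative had both tested. Whether 1 member of a pair replaces the other was not tested. In 5 of the pairs the listed germ cell member was higher and its counterpart lower. Smc1b was higher by 6.28 while Smc1a, the cohesin subunit of dividing cells, was lower (-0.98, SE 0.19). The testis lactate dehydrogenase Ldhc read 8.11, 8.11 and 9.71 in GSC OG2, against 5.47 and 5.16 in ESC, while Ldha differed by -2.64 (SE 0.33). The transketolase relative Tktl1 was higher by 5.99 (SE 0.20) and Tkt lower (-2.04, SE 0.25). The same held for Tuba3a with Tuba1a (-1.77, SE 0.47) and for Piwil2 with the general Argonaute Ago2 (-1.06, SE 0.31).

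In 4 other pairs the general counterpart was not called. Taf9b, a subunit variant of the general transcription factor TFIID, read 12.86, 12.60 and 12.36 in GSC OG2, against 6.53 and 6.18 in ESC, while Taf9 differed by 0.44 (SE 0.33). The mRNA export factor Nxf2 was higher by 5.28 (SE 0.20) and Nxf1 was at 0.03 (SE 0.25). Stag3 stood beside Stag2 (-0.22, SE 0.21) and the meiotic kleisin Rec8, higher by 1.57, beside Rad21 (0.14, SE 0.63). In the remaining pair, Dazl and its relative Boll were both higher. Taf7l had no tested counterpart, since Taf7 was undetected on all 5 arrays. Levels of different probes cannot be set against each other, so the pairs compare differences only. With the fibroblast covariate, the calls of Ldhc, Tuba1a and Smc1a were lost (limma adjusted p = 0.109, 0.191 and 0.0803), while their differences were 3.63 (SE 1.51), -1.56 (SE 0.80) and -0.84 (SE 0.32).

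**Figure D4:**
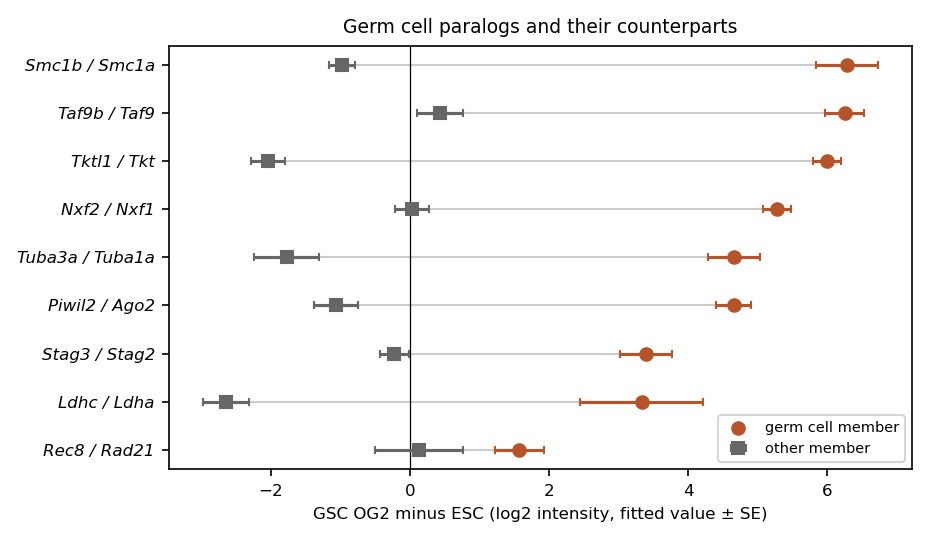
Difference between GSC OG2 and ESC (log2, fitted value with its standard error) for 9 pairs of a gene listed as the germ cell member (red circles) and its counterpart (grey squares). All 9 listed germ cell members lie above 0, from 1.57 (Rec8) to 6.28 (Smc1b), and the counterparts lie between -2.64 (Ldha) and 0.44 (Taf9).

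The glycolytic enzymes were lower in GSC OG2. Of 18 tested members of the glycolysis and glucose transport list, 14 were lower, 2 were higher and 2 were not called (median -1.88). Pfkl, the liver type of the rate-setting phosphofructokinase, read 8.82, 9.52 and 8.53 in GSC OG2, against 12.37 and 12.31 in ESC, and Pfkp fell by 3.75. The muscle-type aldolase Aldoa read 10.49, 10.70 and 10.45 in GSC OG2, against 12.72 and 12.63 in ESC. Hexokinase 2 (Hk2) was close to the ESC level on line 3 alone, at 10.01, 8.80 and 12.32 on lines 1, 2 and 3, against 12.68 and 12.63 in ESC. The higher members were the muscle phosphofructokinase Pfkm and the brain aldolase Aldoc. The fibroblast values of the 5 arrays moved with this group, and with them as a covariate 5 members were called lower.

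Many genes of amino acid metabolism and transport were lower too. Of 18 tested genes of threonine, glycine, serine and branched-chain amino acid metabolism, 12 were lower, 0 were higher and 6 were not called (median -1.52). Slc7a3, a carrier of cationic amino acids, read 6.87, 5.65 and 6.88 in GSC OG2, against 12.80 and 12.76 in ESC. The branched-chain aminotransferases Bcat1 and Bcat2 were lower by fitted values of -6.28 (SE 0.31) and -3.73 (SE 0.24). Gldc, the glycine decarboxylase of the one-carbon cycle, read 10.50, 10.40 and 10.24 in GSC OG2, against 13.10 and 13.15 in ESC. With the fibroblast covariate 7 members of the list were called lower.

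Epithelial features separated both cell types. Of 17 tested claudin, keratin and junction genes, 11 were lower, 3 were higher and 3 were not called (median -1.77). The list holds only some keratins: of all 9 tested Krt genes, 3 were higher and 2 lower (median 0.30). Cldn6, a claudin of early epithelium, read 5.01, 5.23 and 5.22 in GSC OG2, against 10.80 and 10.77 in ESC. The gap junction gene Gja1 was lower by a smaller amount (-2.42, SE 0.26) and remained at 10.15 to 10.32 in GSC OG2. The higher members were Ocln, Cldn12 and Cldn11, the last a claudin of the testis barrier, at 6.57, 6.63 and 8.29 in GSC OG2, against 4.48 and 4.58 in ESC.

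Regulators of the G1 phase differed in both directions. Of 19 tested cyclins, Rb family genes and cycle inhibitors, 8 were higher, 2 were lower and 9 were not called (median -0.07). Ccne1 (cyclin E1), abundant in ESC, fell to 6.46, 6.44 and 6.51 in GSC OG2, against 10.12 and 9.93 in ESC. Ccnd2 (cyclin D2), the D cyclin of spermatogonia, read 10.60, 8.74 and 11.86 on GSC OG2 lines 1, 2 and 3, against 5.87 and 5.80 in ESC. The retinoblastoma gene Rb1 read 10.44, 10.42 and 10.62 in GSC OG2, against 8.05 and 8.09 in ESC. The inhibitor genes Cdkn2a and Cdkn2b were higher by 3.65 (SE 0.74) and 1.98 (SE 0.48). With the fibroblast covariate 2 members were called higher, and Ccnd2, Cdkn2a and Cdkn2b were no longer called. The difference of Ccnd2 was then 3.86 (SE 1.35), against 4.56 without the covariate, whereas those of Cdkn2a and Cdkn2b were 1.67 (SE 1.05) and 0.47 (SE 0.62). In the 3 GSC OG2-ROSA lines Ccnd2 ranged from 10.97 to 11.10 and Rb1 from 10.39 to 10.90.

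Chromatin genes were lower more often than higher. Of 31 tested Polycomb and histone-modifying genes, 15 were lower, 4 were higher and 12 were not called (median -0.79). Kdm4c, a histone demethylase, read 5.90, 5.88 and 5.45 in GSC OG2, against 9.32 and 9.27 in ESC. Ezh2, the methyltransferase of Polycomb complex 2, was lower by a fitted -1.21 (SE 0.30). Bmi1, a core gene of Polycomb complex 1, was higher, at 7.50, 8.26 and 8.40 in GSC OG2, against 5.01 and 4.76 in ESC, as were E2f6 (2.07, SE 0.25), Cbx2 (1.96, SE 0.34) and Ehmt2 (1.19, SE 0.30). E2f6 represses germline genes in somatic and embryonic cells. With the fibroblast covariate 7 members were called lower.

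Of 12 tested genes of DNA methylation and its removal, 4 were lower, 2 were higher and 6 were not called. The lower genes were Dnmt3l, the glycosylase Tdg (-2.29, SE 0.25), Gadd45a and Mbd3. The maintenance pair Dnmt1 (0.40, SE 0.21) and Uhrf1 (-0.01, SE 0.19) did not pass the test, nor did the de novo enzyme Dnmt3b (-1.04, SE 0.52).

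Imprinted genes, which are expressed from 1 parental allele, differed in both directions. Of 11 tested genes expressed from the paternal allele, 5 were higher, 5 were lower and 1 was not called. Igf2, a fetal growth factor, read 14.10, 14.60 and 13.41 in GSC OG2, against 9.90 and 9.99 in ESC, and Dlk1 was at least 19.3-fold higher. Snrpn, a splicing protein gene, read 9.20, 9.27 and 8.86 in GSC OG2, against 12.65 and 12.77 in ESC, and Impact fell by 2.33. The count of lower members was 3 without GSC OG2 line 1 and without ESC array 1. Of 10 tested maternally expressed genes, 3 were higher, 3 were lower and 4 were not called, and without either ESC array 1 was called each way. The H19 transcript was not analysed here. Alleles were not told apart by these arrays, and fibroblast genes were higher on the same arrays. The differences of Igf2 and Dlk1 with the fibroblast covariate were 2.52 (SE 0.67) and 2.90 (SE 0.85), and both were still called. The 3 higher maternally expressed genes were Dcn, which is also on the fibroblast list, Cdkn1c and Nap1l4. With the covariate Dcn (-0.96, SE 1.11) and Cdkn1c (0.86, SE 0.65) were not called, and Nap1l4 was (1.24, SE 0.32). The 3 lower ones, Phlda2, Grb10 and Ppp1r9a, were still called.

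Interferon-related and antigen presentation genes were higher in part. Of 23 tested members of the MHC class I and interferon response list, 12 were higher, 3 were lower and 8 were not called (median 1.04). Gbp2, an interferon-induced GTPase, read 10.25, 10.51 and 10.63 in GSC OG2, against 4.68 and 4.53 in ESC. Oasl2 and Ifi27 were among the leading 15 and B2m, the light chain of MHC class I, was higher by 2.46 (SE 0.34). The membrane proteins Ifitm1 and Ifitm2 were lower (-2.45, SE 0.76, and -1.27, SE 0.42). Without either ESC array 0 members were called lower.

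Genes of fibroblasts and stroma were higher as a group. Of 24 tested members, 18 were higher, 0 were lower and 6 were not called (median 2.32). Dcn (decorin), a matrix proteoglycan, read 12.07, 13.58 and 11.47 on GSC OG2 lines 1, 2 and 3, against 7.23 and 7.19 on the ESC arrays. Mmp2, a matrix metalloproteinase, read 11.18, 12.25 and 9.53 in GSC OG2, against 7.03 and 6.88 in ESC. Line 2 was the highest for Dcn, Mmp2 and Lum. Without ESC array 1 or 2 the count of higher members was 9, and with the ESC arrays averaged it was 8. Among the 8 tested Sertoli, Leydig and peritubular genes 1 was higher, Wt1, at 9.14, 10.30 and 8.04 in GSC OG2, against 4.86 and 4.65 in ESC, and 3 were lower. Basement membrane genes were split, with 4 of 13 higher, among them Col4a1 (3.28, SE 0.57) and Col4a2 (3.09, SE 0.63), and 3 lower, led by Lama1 (-3.44, SE 0.65). None of these 3 genes was called with the fibroblast covariate: the differences were 1.64 (SE 0.78) for Col4a1, 0.39 (SE 0.48) for Col4a2 and -3.24 (SE 1.11) for Lama1. The part of feeder or other stromal cells in these differences was not tested.

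Genes of other lineages differed in both directions. Of 21 mesoderm and neural genes on the array, 8 could be tested, 5 of them higher and 2 lower. Zic1, a zinc finger factor of neural and mesodermal tissue, read 11.93, 8.47 and 10.75 on GSC OG2 lines 1, 2 and 3, against 4.55 and 4.64 in ESC, and Foxf1 was higher by 4.04 (SE 0.34). Olig1 was lower, at 4.93, 5.26 and 5.34 in GSC OG2, against 10.46 and 10.50 in ESC. Of 10 tested primitive endoderm genes, 5 were higher and 3 lower, and with the fibroblast covariate 1 and 0. Of 9 tested primed epiblast genes, 2 were higher and 3 lower, and of 7 tested trophoblast genes 2 were higher and 2 lower. Of the genes of the 2-cell-like state on the array, 1 of 9 could be tested, Eif1a, which was lower (-1.55, SE 0.20). Both groups showed Y-linked transcripts: Eif2s3y read 10.21, 10.18 and 10.55 in GSC OG2 and 10.40 and 10.44 in ESC, while Usp9y, at 9.10, 9.11 and 9.67 in GSC OG2, was undetected in ESC. Xist did not pass the test (0.70, SE 0.29, limma adjusted p = 0.062).

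The contrast with the OG2-ROSA lines was small beside that with ESC. Of the same probes, 1 (0.00822%) was called between GSC OG2 and GSC OG2-ROSA. It was Cstdc4, which was lower in GSC OG2 by a difference of -1.62 (SE 0.20, limma adjusted p = 0.0172). An unadjusted limma p under 0.05 was found for 495 of the 12165 probes, a smaller share than that limit passes where nothing differs. The count of called probes was 0 with another background correction (normexp offset 50), without background correction, with the authors' values and with the replicate block. Without GSC OG2 line 3 it was 69, and without any other single array 0. Strain and transgenes differ between these groups and cannot be told apart.

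Whole chromosomes also differed between arrays. For each chromosome, the median deviation of its genes from the GSC OG2 mean was taken relative to that of all genes detected on all 5 arrays. The 358 genes of chromosome 8 stood at 0.29 and 0.33 on the ESC arrays and the 187 genes of chromosome X at 0.40 and 0.37, so that among genes detected on all 5 arrays both medians were lower in GSC OG2. Along chromosome 8, in 4 blocks of 89 or 90 genes, the ESC arrays lay 0.23 to 0.45 above the GSC OG2 mean. On the other arrays the chromosome 8 median lay between -0.12 and 0.15, except 0.35 on 1 of the pluripotent lines derived from germline stem cells. The chromosome X median lay between -0.07 and -0.01 on the GSC OG2-ROSA lines and between 0.09 and 0.37 on those pluripotent lines. Of the tested genes of chromosome 8, 16.2% were called higher and 32.2% lower in GSC OG2, against 26.7% and 22.5% of all tested genes. Of the 282 tested genes of chromosome X, which include those detected in 1 group only, 32.3% were called higher and 29.4% lower, and 16.7% were detected on all GSC OG2 arrays and no ESC array.

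Within the germline stem cells, line 3 stood above lines 1 and 2 by 0.41 on chromosome 6 and by 0.39 on chromosome 15. It was the highest of the 3 lines for 72.9% of the chromosome 6 genes and 75.8% of the chromosome 15 genes, against 35.5% of all genes. As a deviation from the GSC OG2 mean, line 3 stood at 0.27 on chromosome 6 and 0.25 on chromosome 15. GSC OG2-ROSA line 1 was shifted on the same chromosomes, at 0.31 and 0.36 in that measure. On the other 15 autosomes, chromosome 18 apart, the medians lay between -0.05 and 0.05 for GSC OG2 and between -0.09 and 0.09 for ESC, and chromosome 18 stood at -0.17 and -0.15 on the ESC arrays. With other background corrections and scalings and with the authors' values, chosen after seeing the data, the ESC shift was 0.24 to 0.36 for chromosome 8 and 0.22 to 0.40 for X. Chromosome copy number was not measured, and its part in these shifts was not tested.

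**Figure D5:**
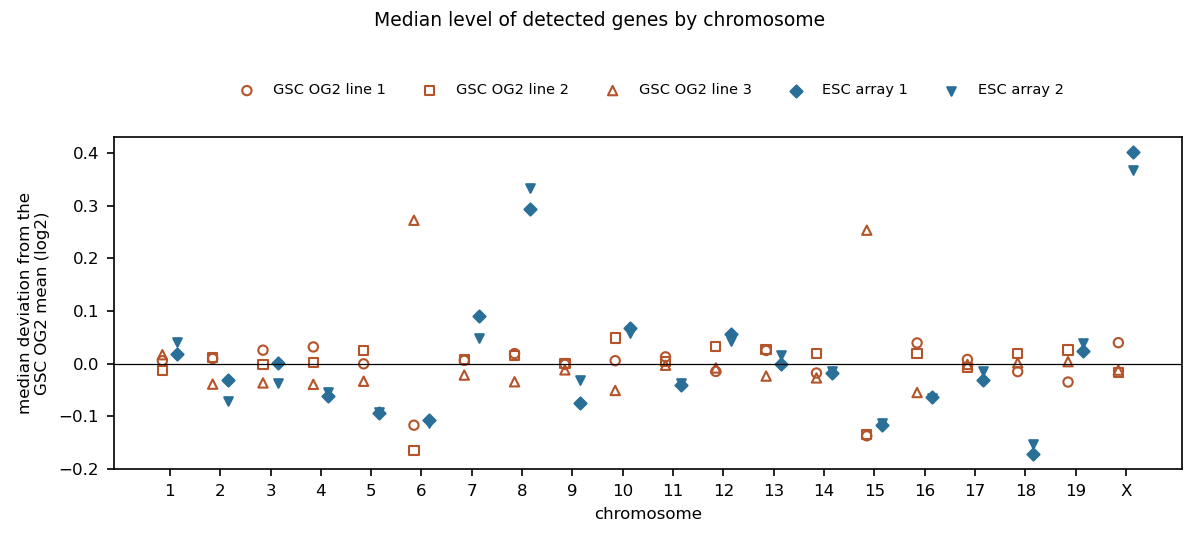
Median deviation of each chromosome's genes from the GSC OG2 mean (log2, relative to all genes), GSC OG2 lines as open red symbols at left and ESC arrays as filled blue symbols at right of each chromosome. The ESC arrays stand at 0.29 and 0.33 on chromosome 8 and at 0.40 and 0.37 on X, and GSC OG2 line 3 stands at 0.27 on chromosome 6 and 0.25 on chromosome 15.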

How the data were processed

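RNA of 3 GSC OG2 lines and 2 ESC arrays was measured on Illumina Mouse-8 v2 arrays, per the labels. Each array has a deposited column of linear intensity, with no normalization and no background subtraction visible in the values, and next to it a deposited detection p-value. BeadStudio 3.2, RMA and lumi are listed in the submitters' processing notes, with no role given for any of them. The authors' deposited value table is on a log2 scale, inferred from the values, and served as an alternative.

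All 14 arrays were background-corrected, quantile-normalized and put on a log2 scale with limma 3.58.1 in R 4.3.3 (neqc, offset 16). A model of 5 group means was fitted (lmFit, eBayes), so that all groups share in the estimate of spread, and adjusted p-values (Benjamini-Hochberg) run over the 12165 probes. Means of raw signal were 626 to 639.5 on the GSC OG2 arrays and 584 and 622 on the ESC arrays. Symbols came from the platform annotation: 23978 probes had 1, 0 had several and 1719 had none. Chromosomes and upstream sequences came from RefSeq tables of build GRCm38.p6.

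Members and the 29 gene lists were chosen with earlier results of these data known. A gene counts in a list at its probe with the highest mean. Named were the 15 genes per direction with the largest difference among called, fully detected, non-overlapping genes, passing over placeholder symbols, then up to 6 called members per list, both members of tested paralog pairs, and 20 fixed genes. Further genes were named after their values were seen. Probes of 11 genes were called in opposite directions; none of these genes is named here. The procedure was tested on simulated data. Alternatives covered background correction, scaling, the authors' values, probe filter, arrays fitted, array weights, replicate block, averaged ESC arrays, the fibroblast list mean as covariate and leaving out each array. Chip or scan batch was not analysed here.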

Additional observations from a re-analysis of the deposited data

Results flagged for a closer look

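Cstdc4, a cystatin domain gene, differed between the GSC OG2 and GSC OG2-ROSA lines by -1.62 log2 units (SE 0.20, limma adjusted p = 0.0172), which is also the test of whether both kinds of line differ alike from the shared ESC arrays. Its mean was 5.64 in GSC OG2, against 7.25 in GSC OG2-ROSA (range 7.08 to 7.61).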

How the results depend on the processing

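Counts of called probes in GSC OG2 against ESC stayed within 1.5 times of 5828 under most alternatives. With all arrays kept, these gave from 5491 with the line number as replicate block to 8051 with array weights; without the 2 dimmest arrays of other groups, chosen after seeing the data, it was 6661. They moved further under 4 settings. With the ESC arrays averaged 3867 probes were called, 2053 higher and 1814 lower. With the mean of the fibroblast list as covariate 2478 were called, 1303 higher and 1175 lower, 2464 of them at least 2-fold. With probes detected on all 5 arrays only, which drops genes that are off in 1 group, 3678 were called, 1644 of them higher and 2356 at least 2-fold. Without background correction 2327 were at least 2-fold. Leaving out 1 array gave 3915 to 5257 calls, with 2082 to 2779 higher, 1833 to 2478 lower and 3561 to 4121 at least 2-fold. Median scaling raised the median of all probes to 0.14, against 0.04, and the share of higher calls to 59.7%, against 53.2%. Of 179 named probes, 121 kept direction and call in all alternatives run on them. Under the covariate the differences of Dcn (-0.96), Col3a1 (-0.86) and Timp3 (-0.28) turned negative; these genes belong to the covariate's own list. The replicate number is only a number here, with deviations of same-numbered GSC OG2 and ESC samples uncorrelated, and the block changed the call of 3 named probes. Against GSC OG2-ROSA the count was 1, 0 with normexp offset 50, without background correction, with the authors' values and with the replicate block, 3 with median scaling, and 0 to 69 on leaving out 1 array. The cause of these moves was not tested.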

Other observations

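Other gene groups also stood apart, all looked at after their values were seen. Of 14 tested Hox genes, the homeobox genes of body position, 10 were higher in GSC OG2, 0 lower and 4 not called. Of all tested genes 26.7% were higher. No tested Hox gene was detected on both ESC arrays. All 14 thus passed the probe filter through GSC OG2, which left little room for a lower call. Hoxb7 read 10.93, 9.84 and 10.77 on GSC OG2 lines 1, 2 and 3, against 4.65 and 4.48 on the ESC arrays, and line 2 was the lowest line for Hoxb2, Hoxb4, Hoxb5, Hoxb6 and Hoxb7 alike. Of 11 tested aldehyde dehydrogenase genes, 8 were lower in GSC OG2 and 0 higher, led by Aldh5a1 (-2.05, SE 0.34). Of 11 tested Ccl chemokine genes, 6 were higher, 0 were lower and 5 were not called. All 6 (Ccl3, Ccl4, Ccl8, Ccl9, Ccl11 and Ccl12) were undetected on both ESC arrays and so passed the probe filter through GSC OG2 alone.

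Of the 7 tested macrophage and myeloid genes outside the Ccl family, 4 were higher in GSC OG2 (Lyz1, Lyz2, C1qc and Adgre1), 0 were lower and 3 were not called. All 7 were highest on line 1 and lowest on line 3. Lyz2, C1qc and Adgre1 were undetected on both ESC arrays and so passed the probe filter through GSC OG2 alone. C1qc, a chain of complement C1q, read 9.79, 6.23 and 5.15 on GSC OG2 lines 1, 2 and 3, against 4.55 and 4.75 on the ESC arrays. The surface receptor Adgre1 (F4/80) read 7.93, 6.34 and 4.91, against 4.61 and 4.56 in ESC, and Ccl4 read 9.68, 8.04 and 5.06, against 4.57 and 4.59. Those not called were Laptm5, which read 11.47, 10.43 and 7.86 on lines 1, 2 and 3, against 12.02 and 12.07 in ESC (-2.12, SE 0.86), Ctss (0.01, SE 0.33) and Tyrobp (1.01, SE 0.42). Ptprc, Itgam, Spi1, C1qa and C1qb were not detected often enough to be tested. The part of macrophages in the leading Lyz1 and Lyz2 differences was not tested.

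Over the 3 GSC OG2 lines, a probe's highest and lowest log2 level lay more than 1 apart for 11.3% of tested probes. Among the genes with the widest range were Pou5f1 and Zfp330, a zinc finger gene that read 6.88, 4.65 and 10.70 on lines 1, 2 and 3, against 4.77 and 4.57 in ESC.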
